A study of Mus musculus with 12 samples.

Results

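A group of 9 genes known from astrocytes in injured, ischemic or inflamed mouse brain is described here across 2 cytokine treatments that turn cultured neural stem cells into astrocytes. They were taken by symbol: Timp1, Cd44, Cp, Lcn2 and Aspg from a set induced in reactive astrocytes in general, Emp1, Cd109 and Sphk1 from a set linked to ischemia, and Amigo2 from a set linked to neuroinflammation. These 9 genes carry 26 probes on the array. All 9 passed the detection filter and were among the 10786 genes tested, out of 17706 genes with a probe. Aspg passed through BMP4 arrays alone, and Lcn2 through 4 BMP4 arrays and 1 LIF.NOG array, so their place among the tested genes already depends on the groups where they were high.

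Astrocytes respond to injury with a shift in gene expression called reactive gliosis, in which they enlarge, raise intermediate filaments such as Gfap and secrete or display proteins that act on matrix, iron, lipids and neighbouring cells. Cytokines of the LIF family act through gp130 and STAT3, a pathway needed for much of reactive gliosis in mouse, while BMP4 acts through SMAD proteins. Both pathways can also push neural stem cells towards astrocytes.

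Subventricular zone cells of CD1 mice, taken at postnatal day 1, were the source of all 12 samples and were grown as neurospheres, floating clusters of neural stem cells, in EGF at 20 ng/ml. The 4 Neurosphere samples carried a control GFP retrovirus, and their RNA was taken from GFP-sorted cells with no differentiation. The 4 LIF.NOG samples carried a GFAP-GFP retrovirus, in which the mouse Gfap promoter drives GFP, and were sorted and kept for 7 days in EGF at 1 ng/ml with LIF at 20 ng/ml and noggin, which blocks BMPs, at 250 ng/ml. The 4 BMP4 samples carried the same GFAP-GFP retrovirus and were kept for 7 days in EGF at 1 ng/ml with BMP4 at 20 ng/ml. Cytokines were added again after 3 days at a lower dose. Retrovirus, EGF dose and time in culture thus differ together with the cytokine in both comparisons with Neurosphere and cannot be told apart from it there, while LIF.NOG and BMP4 share them. Between LIF.NOG and BMP4, the added LIF, noggin and BMP4 protein differ together, so their parts cannot be told apart there. Nothing in the labels tells whether each replicate had its own culture or animal, so p-values reflect only how far these samples spread, and that spread may be technical. RNA came from bulk samples, in which fewer cells of a type and less RNA per cell cannot be told apart.

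Between 38.6% and 42.0% of probes were detected per array, and median raw signal lay between 69.0 and 80.9. Arrays LIF.NOG.2 and BMP4.4 stood apart from their groups, with weights of 0.246 and 0.333 in a fit that weights arrays by how closely they follow their group. Results are therefore given with and without both where a call changed. Of 10 astrocyte markers, all were detected on every BMP4 array, while S100b was undetected on all Neurosphere and LIF.NOG arrays and Gfap was detected on 1 Neurosphere array. Their summed signal was 20921 to 23012 on Neurosphere, 28802 to 44763 on LIF.NOG and 81243 to 119358 on BMP4 arrays. Of 10 microglial markers measured, including Aif1, Itgam and Ptprc, 0 were detected on any array. Summed oligodendrocyte markers reached 3040 to 7871 on LIF.NOG arrays against 238.5 to 357.1 on BMP4 and 365.4 to 655.9 on Neurosphere arrays. Neural stem cell markers summed to 4838 to 5640 on Neurosphere, 6132 to 11932 on LIF.NOG and 1958 to 2917 on BMP4 arrays, and ependymal markers to 287.0 to 317.9, 602.5 to 1528 and 472.9 to 504.4. The stem cell markers did not rise together in LIF.NOG. Hes5 gave log2 11.87 to 12.49 on LIF.NOG.1, LIF.NOG.3 and LIF.NOG.4 against 7.53 to 8.30 on Neurosphere arrays, and Prom1 exceeded the Neurosphere range on LIF.NOG.1, LIF.NOG.2 and LIF.NOG.4. Egfr lay at 11.1 to 11.5 against 11.2 to 11.4, and Fabp7 was detected on 1 LIF.NOG array against 4 Neurosphere arrays. The part of these marker differences in the results below was not tested.

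Against Neurosphere, 6 of the 9 genes were higher in LIF.NOG, namely Timp1, Cp, Cd109, Emp1, Amigo2 and Cd44, and 0 were lower. Calls were made with limma over all genes, at a Benjamini-Hochberg adjusted p below 0.05. In that comparison 33.1% of all genes tested were called, 16.5% higher and 16.5% lower. Another scaling, by array medians, called all genes in a split of 62.4% higher in place of 50.0%. In BMP4, 4 of the 9 were higher than in Neurosphere, namely Sphk1, Cd44, Aspg and Cp, and 0 were lower, beside 54.3% of all genes called, 26.6% higher and 27.7% lower. Between the treatments, Sphk1, Aspg and Cd44 were higher in BMP4, and Timp1, Emp1, Cd109, Cp and Amigo2 were lower in BMP4 than in LIF.NOG. That is 3 higher and 5 lower of 9, where 43.9% of all genes were called, 20.7% higher and 23.2% lower. The median log2 difference of the 9 genes was 1.47 in LIF.NOG against Neurosphere, 1.29 in BMP4 against Neurosphere and -1.15 in BMP4 against LIF.NOG, beside -0.01, 0.0026 and -0.0029 for all genes. Median absolute differences of the 9 were 1.47, 1.29 and 1.82, beside 0.28, 0.48 and 0.36. The 9 genes were chosen with earlier results of these data known, so these counts and medians are descriptions and no test against all genes. With Cp, Lcn2 and Aspg at the bounds explained below, the medians of the 9 were 1.47, 0.95 and -1.15, beside 0 for all genes treated in the same way. Both comparisons with Neurosphere share the same 4 Neurosphere arrays. Aspg passed the filter through BMP4 arrays alone, so its calls as higher in BMP4 add no support. Without LIF.NOG.2 and BMP4.4, a choice made after seeing the data, 7, 6 and 9 of the 9 were called in the order given here, beside 44.5%, 57.7% and 48% of all genes. The gained calls were Sphk1 in the first, Emp1 and Lcn2 in the second and Lcn2 in the third. Lcn2 was then detected on BMP4 arrays alone, so its gained calls add no support.

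**Figure D1:**
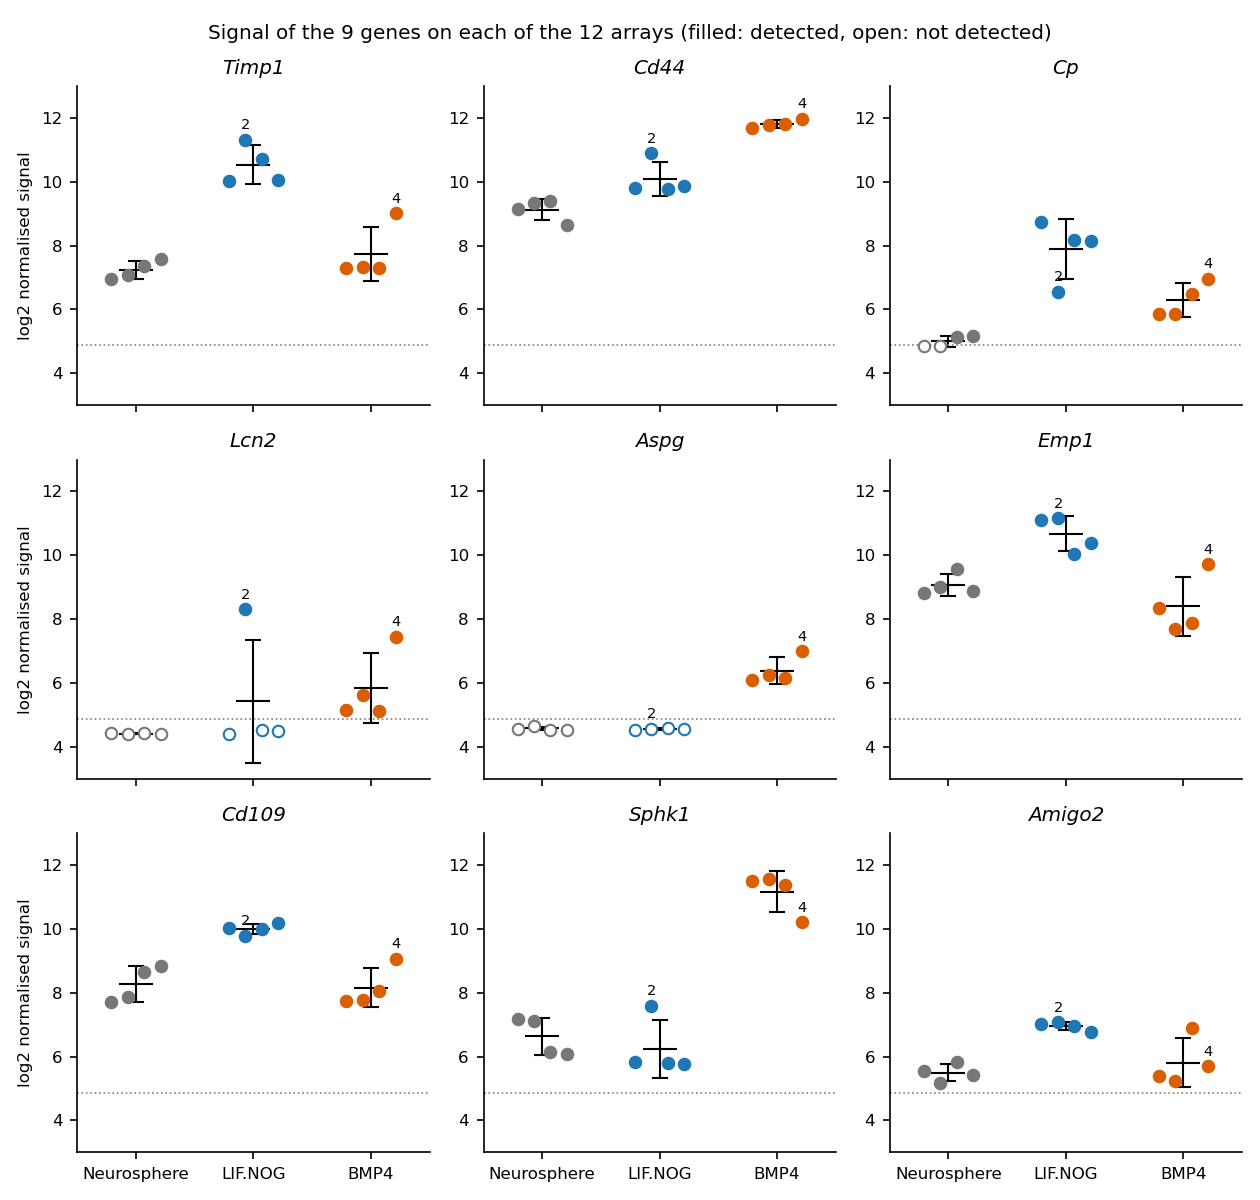
Log2 normalised signal of the probe tested for each of the 9 genes on the 12 arrays, with groups on the horizontal axis. Points are arrays (filled if detected at p under 0.05), black bars the mean and SD of 4 arrays, the dotted line the mean detection floor, and digits mark arrays LIF.NOG.2 and BMP4.4. Timp1, Cp, Emp1, Cd109 and Amigo2 have their highest group mean in LIF.NOG, and Cd44, Sphk1, Aspg and Lcn2 have theirs in BMP4.

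Promoters of 8 of the 9 genes were found in a RefSeq table of build GRCm38.p6, which lists 14 start sites for them, and the 250 bases before each start were searched on both strands for 4 motifs. These were TTCNNNGAA, the core bound by STAT factors, TGANTCA, bound by AP-1, GGGA and TCC with any 3 letters between them, a form bound by NF-kB, and GGCGCC, a GC box bound by BMP-activated SMADs. Among all 32536 promoters of this length, 7.04% held the STAT core, 6.73% the AP-1 site, 3.87% the NF-kB form and 9.65% the GC box. The STAT core was found for Emp1 and Sphk1, the AP-1 site for Cp, Emp1 and Sphk1, the NF-kB form for 0 of the 8 genes and the GC box for Amigo2. Counted by promoter, as those shares are, these were 3, 4, 0 and 1 of the 14. The promoters of Emp1, highest in LIF.NOG, and Sphk1, highest in BMP4, are shown because they hold both the STAT core and the AP-1 site and the genes moved in opposite directions between the treatments. Matches are in capitals, 5′ to 3′, and are descriptions of sequence only. In Emp1, on the plus strand at chr6:135362681-135362930, AP-1 matches lie 145 and 25 bases before the start and STAT matches 120 and 22 bases before it, and the pair nearest the start overlaps. In Sphk1, on the plus strand at chr11:116531587-116531836, the AP-1 match lies 50 and the STAT match 41 bases before the start. A second annotated Sphk1 start, 3′ of this one, has the same matches in its window. The windows of the other Sphk1 starts held 0 matches, as did that of a second start of Emp1 and of Cp. The Cp promoter, on the plus strand at chr3:19956804-19957053, has its AP-1 match 177 bases before the start and is shown as a LIF.NOG-high gene without the STAT core.
Emp1: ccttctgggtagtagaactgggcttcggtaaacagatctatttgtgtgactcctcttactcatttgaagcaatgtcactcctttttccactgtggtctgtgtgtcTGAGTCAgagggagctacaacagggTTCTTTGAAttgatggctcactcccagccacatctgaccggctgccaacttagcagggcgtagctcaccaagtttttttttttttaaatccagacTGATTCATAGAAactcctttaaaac
Sphk1: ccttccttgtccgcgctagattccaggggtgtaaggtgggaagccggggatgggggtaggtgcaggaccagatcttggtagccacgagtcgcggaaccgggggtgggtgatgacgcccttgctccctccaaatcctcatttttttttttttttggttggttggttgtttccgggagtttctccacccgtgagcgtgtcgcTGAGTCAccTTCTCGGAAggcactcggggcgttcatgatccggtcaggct
Cp: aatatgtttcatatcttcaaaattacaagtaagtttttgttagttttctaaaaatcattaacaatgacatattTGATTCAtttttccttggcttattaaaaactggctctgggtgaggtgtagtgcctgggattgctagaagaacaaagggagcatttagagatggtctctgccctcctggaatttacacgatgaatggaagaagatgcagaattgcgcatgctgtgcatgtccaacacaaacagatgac

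Timp1 and Cd44 act at the extracellular matrix. The former encodes a secreted inhibitor of matrix metalloproteinases, and the latter the cell surface receptor for the matrix polysaccharide hyaluronan. Timp1 gave log2 signals of 6.97, 7.07, 7.36 and 7.58 on Neurosphere arrays 1 to 4, of 10.04, 11.32, 10.70 and 10.06 on LIF.NOG arrays, and of 7.30, 7.33, 7.29 and 9.02 on BMP4 arrays. All LIF.NOG arrays lay above every other array, and among BMP4 arrays only BMP4.4 exceeded the Neurosphere range. Timp1 was 3.29 ± 0.37 (SE) log2 units higher in LIF.NOG than in Neurosphere, a 9.75-fold difference (limma adjusted p = 3.25e-05), and lower in BMP4 than in LIF.NOG by a difference of -2.79 ± 0.37 (adjusted p = 3.86e-05). BMP4 and Neurosphere differed by 0.49 ± 0.37, which did not pass (adjusted p = 0.300), and across 25 alternatives that adjusted p ranged from 0.176 to 0.868.

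Cd44 gave 9.15, 9.33, 9.40 and 8.65 on Neurosphere arrays, 9.82, 10.89, 9.78 and 9.88 on LIF.NOG arrays, and 11.69, 11.77, 11.80 and 11.97 on BMP4 arrays, with the probe that had the highest mean of its 10. The 3 groups did not overlap. Cd44 was 0.96 ± 0.23 higher in LIF.NOG than in Neurosphere (limma adjusted p = 0.00632), 2.67 ± 0.23 higher in BMP4 than in Neurosphere (adjusted p = 3.89e-07), and 1.72 ± 0.23 higher in BMP4 than in LIF.NOG (adjusted p = 4.47e-05). Without LIF.NOG.2 and BMP4.4 these calls held. The LIF.NOG call was lost when all kept Cd44 probes were averaged, at 0.42 ± 0.17 (adjusted p = 0.0726), and within 1 row-order set, at 1.03 ± 0.33 (adjusted p = 0.0732). Averaging the probes gave 1.52 and 1.11 for BMP4 against Neurosphere and against LIF.NOG. A row-order set holds the arrays whose columns share 1 order of rows in the deposited table of processed values. Set A has Neurosphere.2 to 4 and LIF.NOG.1 to 3, and set B has the other arrays, with all 4 of BMP4.

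Of the 10 Cd44 probes, 5 passed the detection filter and 4 were detected on no array. Besides the tested probe, 3 of the 5 were detected on all 4 BMP4 arrays, on 0 Neurosphere arrays and on at most 1 LIF.NOG array, and so were kept through BMP4. Their calls as higher in BMP4 follow from that and add no support. The remaining kept probe, ILMN_2730266, was detected on 2 Neurosphere, 4 LIF.NOG and 3 BMP4 arrays and was called in no comparison (limma adjusted p = 0.517, 0.189 and 0.642). Probe ILMN_2474229 was undetected on all Neurosphere and LIF.NOG arrays and gave 6.02, 5.89, 5.96 and 8.32 on BMP4 arrays 1 to 4, so BMP4.4 lay far above its group on this probe while the tested probe placed it 0.22 above the mean of the other 3.

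In a list of 12 genes of the Timp and metalloproteinase system, 11 were tested. Of these 3 were higher and 1 lower in LIF.NOG than in Neurosphere, 7 higher and 1 lower in BMP4 than in Neurosphere, and 6 higher and 2 lower in BMP4 than in LIF.NOG. The list's median log2 differences were 0.09, 0.76 and 0.46, beside -0.01, 0.0026 and -0.0029 for all genes. With genes near the floor at the bounds explained below, they were 0, 0.76 and 0.46. Of all genes, 33.1%, 54.3% and 43.9% were called in these comparisons. The same shares and all-gene medians apply to every list below. The other Timp genes encode inhibitors of the same family. Timp4 fell by 1.70 ± 0.39 in LIF.NOG (limma adjusted p = 0.00426) and rose by 2.82 ± 0.39 in BMP4 (adjusted p = 2.63e-05), which left it 4.51 ± 0.39 higher in BMP4 than in LIF.NOG (adjusted p = 6.95e-07). Timp3 rose by 3.61 ± 0.25 in BMP4 against Neurosphere and by 1.604 ± 0.25 in LIF.NOG, and was 2.00 ± 0.25 higher in BMP4 than in LIF.NOG (adjusted p = 5.21e-08, 0.000352 and 2.25e-05). Timp2 rose by 2.55 ± 0.31 in LIF.NOG and by 2.70 ± 0.31 in BMP4 (adjusted p = 5.47e-05 and 4.58e-06). Cd63, a tetraspanin that binds Timp1 at the cell surface, rose by 1.85 ± 0.14 in LIF.NOG and by 0.91 ± 0.14 in BMP4 (adjusted p = 1.29e-06 and 6.90e-05). Mmp9, a gelatinase that Timp1 inhibits, was undetected on all Neurosphere and LIF.NOG arrays. It was thus kept through BMP4 alone, and its calls as higher in BMP4, counted above, add no support. Mmp9 was at least 2.47-fold higher in BMP4 than in LIF.NOG (limma adjusted p = 2.63e-06). Such a bound sets the mean of the brighter group against the mean of the dimmer one after each of its arrays was raised to that array's detection floor where it lay below it. It is given where at least 2 of the 4 arrays of the dimmer group did not detect the gene, and it holds for the normalised values used here.

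Of 12 hyaluronan genes and Cd44 partners, 7 were tested, with 3 higher in LIF.NOG than in Neurosphere, 2 higher and 2 lower in BMP4 than in Neurosphere, and 2 higher and 2 lower in BMP4 than in LIF.NOG. The medians were -0.01, -0.20 and -0.09. Of all genes, 33.1%, 54.3% and 43.9% were called in these comparisons. Has2, a hyaluronan synthase, rose by 1.43 ± 0.17 in LIF.NOG (limma adjusted p = 4.66e-05) and was lower in BMP4 than in LIF.NOG at -1.81 ± 0.17 (adjusted p = 1.68e-06). Hyal1, which degrades hyaluronan, rose by 0.71 ± 0.17 in LIF.NOG and by 2.29 ± 0.17 in BMP4 (adjusted p = 0.00572 and 8.89e-08). Hyal2, another hyaluronidase, fell by 1.14 ± 0.14 in BMP4 against Neurosphere (adjusted p = 8.42e-06). Ezr, which encodes ezrin and links the tail of Cd44 to actin, rose by 1.23 ± 0.23 in LIF.NOG and by 2.10 ± 0.23 in BMP4 (adjusted p = 0.00132 and 3.52e-06).

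**Figure D2:**
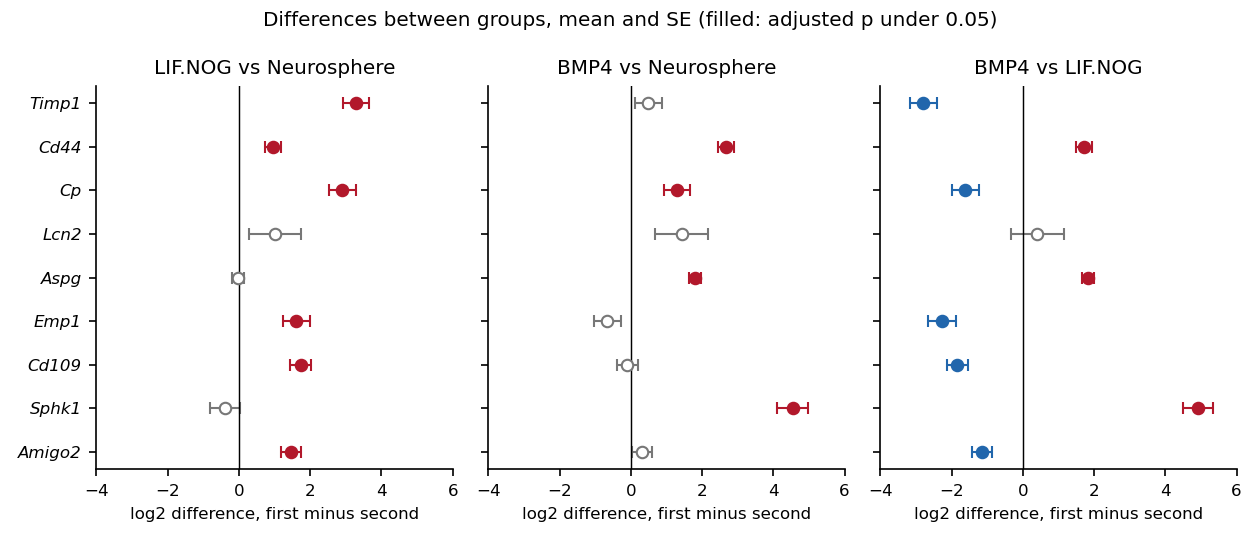
Log2 differences of the 9 genes between groups, first named group minus second, with the moderated SE from limma as bars. Filled points passed at an adjusted p under 0.05, red for higher and blue for lower. Points of Cp and Lcn2 against Neurosphere, of Lcn2 between the treatments and of Aspg are fitted values that include undetected arrays. Timp1, Cp, Emp1, Cd109 and Amigo2 fall below 0 between BMP4 and LIF.NOG, and Sphk1, Cd44 and Aspg lie above 0.

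Cp encodes ceruloplasmin, a copper-bound ferroxidase that helps astrocytes release iron. Its log2 signal was 4.84, 4.84, 5.14 and 5.17 on Neurosphere arrays, of which 2 detected it, 8.74, 6.56, 8.17 and 8.15 on LIF.NOG arrays, and 5.85, 5.87, 6.47 and 6.96 on BMP4 arrays. Both treated groups lay above Neurosphere throughout, and they overlapped each other through LIF.NOG.2, the lowest of its group, and BMP4.4, the highest of its own. Cp was at least 7.41-fold higher in LIF.NOG (limma adjusted p = 9.00e-05) and at least 2.42-fold higher in BMP4 (adjusted p = 0.00923) than in Neurosphere. BMP4 was lower than LIF.NOG at -1.62 ± 0.37 (adjusted p = 0.00297), and at -2.29 ± 0.20 without LIF.NOG.2 and BMP4.4 (adjusted p = 1.66e-06). The BMP4 call against Neurosphere was lost with no background correction (adjusted p = 0.101), on the authors' processed values (adjusted p = 0.194) and with row-order set as block (adjusted p = 0.0683). On the authors' processed values the fitted log2 difference of LIF.NOG against Neurosphere was 1.21 in place of 2.91 and that of BMP4 against LIF.NOG -0.85, both called. A second kept Cp probe was detected on all LIF.NOG arrays, on 1 BMP4 array and on 0 Neurosphere arrays, and was at least 1.61-fold higher in LIF.NOG than in Neurosphere (adjusted p = 0.000198). It was kept through LIF.NOG, so this adds no support.

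Lcn2 encodes lipocalin 2, a secreted protein that binds iron-carrying siderophores and is a marker of strongly reactive astrocytes in mouse. Signals were 4.42, 4.405, 4.44 and 4.41 on Neurosphere arrays, all undetected, 4.41, 8.32, 4.51 and 4.49 on LIF.NOG arrays, and 5.15, 5.64, 5.12 and 7.45 on BMP4 arrays. Among LIF.NOG arrays only LIF.NOG.2 detected it, while all 4 BMP4 arrays did. No comparison of Lcn2 passed with all arrays. The group means lay at least 1.45-fold apart for LIF.NOG over Neurosphere (limma adjusted p = 0.338), at least 1.93-fold for BMP4 over Neurosphere (adjusted p = 0.126) and at least 1.08-fold for BMP4 over LIF.NOG (adjusted p = 0.707).

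The Lcn2 values depended on LIF.NOG.2 and on BMP4.4. Without LIF.NOG.2, Lcn2 was undetected on all remaining LIF.NOG and Neurosphere arrays, and it was called higher in BMP4 than in either, at least 1.98-fold against LIF.NOG (limma adjusted p = 0.0128) and at least 1.93-fold against Neurosphere (adjusted p = 0.00485). With LIF.NOG.2 kept and BMP4.4 left out, the measured mean of BMP4 fell below that of LIF.NOG, which then rested on 1 detected array (adjusted p = 0.908). With both left out, Lcn2 was at least 1.33-fold higher in BMP4 than in Neurosphere and at least 1.36-fold higher than in LIF.NOG (adjusted p = 6.24e-05 and 0.000298). These p-values come from differences against undetected arrays, whose spread is that of signal near the floor. Without LIF.NOG.2, Lcn2 was detected on BMP4 arrays alone and so stood among the tested genes through BMP4. The calls made without that array therefore add no support. On array LIF.NOG.2 the summed endothelial marker signal was 657.7 against 224.5 to 238.4 on the other LIF.NOG arrays, with Flt1 at log2 8.92 against 5.70 to 6.16, while Cdh5, Tek and Tie1 were undetected on every array. Kdr was not raised there, at 5.22 against 5.01 to 5.60, and Pecam1 was undetected on all LIF.NOG arrays, so the higher sum was mainly Flt1. LIF.NOG.2 was also low in Gfap, at 8.8 against 11.0 to 12.3, and in Hes5, at 8.50 against 11.87 to 12.49. The part of these differences in the Lcn2 value was not tested.

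Iron handling genes around Cp and Lcn2 made a list of 12, of which 11 were tested. Of these 3 were higher and 1 lower in LIF.NOG than in Neurosphere, and 5 higher and 2 lower in BMP4 than in Neurosphere. Between the treatments, 5 were higher and 2 lower in BMP4 than in LIF.NOG. Their medians were 0.04, 0.07 and -0.05. Of all genes, 33.1%, 54.3% and 43.9% were called in these comparisons. Heph, the membrane-bound relative of ceruloplasmin, rose by 2.54 ± 0.17 in BMP4 against Neurosphere and by 2.55 ± 0.17 against LIF.NOG (limma adjusted p = 4.45e-08 and 8.11e-08), the reverse of the order of Cp between the treatments. Slc40a1, the iron exporter ferroportin, was at least 3.25-fold higher in BMP4 than in Neurosphere (adjusted p = 4.22e-06). Slc40a1 was undetected on all Neurosphere arrays and so was kept through the treated groups, and this call adds no support. Hmox1, which frees iron from heme, rose by 3.39 ± 0.20 in BMP4 and by 0.73 ± 0.20 in LIF.NOG against Neurosphere, and BMP4 was 2.66 ± 0.20 above LIF.NOG (adjusted p = 1.24e-08, 0.0137 and 2.14e-07). Fth1, the ferritin heavy chain, rose by 0.94 ± 0.14 in LIF.NOG and by 1.87 ± 0.14 in BMP4 (adjusted p = 0.000201 and 7.85e-08), and Tfrc, the transferrin receptor, fell by 1.32 ± 0.21 and by 1.39 ± 0.21 (adjusted p = 0.000430 and 7.03e-05). Trf, which encodes transferrin and is made by oligodendrocytes, was at least 3.19-fold higher in LIF.NOG than in Neurosphere and at least 3.26-fold lower in BMP4 than in LIF.NOG (adjusted p = 9.83e-05 and 1.56e-05). Trf was detected on LIF.NOG arrays alone and so was kept through LIF.NOG, and these calls add no support. Summed oligodendrocyte markers were also highest in LIF.NOG, as given above, and their part in the Trf values was not tested.

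Emp1, Cd109 and Amigo2 encode cell surface proteins. The first is epithelial membrane protein 1, a small protein with several membrane spans of the Pmp22 family, Cd109 is a membrane-anchored protein of the alpha-2-macroglobulin family that binds TGF-beta and dampens its signalling, and Amigo2 is a leucine-rich repeat adhesion protein. Emp1 gave 8.83, 8.99, 9.56 and 8.87 on Neurosphere arrays, 11.11, 11.16, 10.05 and 10.38 on LIF.NOG arrays, and 8.34, 7.68, 7.88 and 9.73 on BMP4 arrays. The LIF.NOG arrays lay above all others, and 3 BMP4 arrays lay below every Neurosphere array while BMP4.4 lay above them. Emp1 rose by 1.61 ± 0.38 in LIF.NOG (limma adjusted p = 0.00570) and was lower in BMP4 than in LIF.NOG at -2.27 ± 0.38 (adjusted p = 0.000294). Within row-order set B the latter was -1.98, but LIF.NOG.4 is the only LIF.NOG array there, so the spread of LIF.NOG could not be measured. The difference between BMP4 and Neurosphere was -0.66 ± 0.38 with all arrays (adjusted p = 0.172) and -1.10 ± 0.28 without BMP4.4, where Emp1 was called lower in BMP4 (adjusted p = 0.00505). Without both BMP4.4 and LIF.NOG.2 it was -1.10 ± 0.25 and was called as well (adjusted p = 0.00218).

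Cd109 gave 7.71, 7.86, 8.64 and 8.85 on Neurosphere arrays, 10.03, 9.79, 10.01 and 10.18 on LIF.NOG arrays, and 7.75, 7.78, 8.05 and 9.07 on BMP4 arrays. Every LIF.NOG array lay above every other array, and Neurosphere and BMP4 overlapped. Cd109 rose by 1.74 ± 0.30 in LIF.NOG (limma adjusted p = 0.000675) and was lower in BMP4 than in LIF.NOG at -1.84 ± 0.30 (adjusted p = 0.000199), and both calls held in all 25 alternatives. BMP4 and Neurosphere differed by -0.10 ± 0.30 (adjusted p = 0.806). A second kept probe of Cd109 was called too, at 1.46 ± 0.30 for LIF.NOG against Neurosphere (adjusted p = 0.00245) and -2.32 ± 0.30 for BMP4 against LIF.NOG (adjusted p = 3.07e-05). That probe was also called lower in BMP4 than in Neurosphere, at -0.86 ± 0.30 (adjusted p = 0.0264), where the probe tested for the gene did not pass.

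Amigo2 gave 5.54, 5.17, 5.83 and 5.44 on Neurosphere arrays, 7.04, 7.07, 6.97 and 6.78 on LIF.NOG arrays, and 5.40, 5.24, 6.91 and 5.70 on BMP4 arrays. The LIF.NOG arrays lay above all Neurosphere arrays, and array BMP4.3 fell inside the LIF.NOG range while the other 3 BMP4 arrays lay inside the Neurosphere range. Amigo2 rose by 1.47 ± 0.28 in LIF.NOG (limma adjusted p = 0.00156) and was lower in BMP4 than in LIF.NOG at -1.15 ± 0.28 (adjusted p = 0.00465). On the authors' processed values these differences were 0.52 and -0.41, and with no background correction 0.76 and -0.59, each still called. The second call was lost with row-order set as block, at -1.08 ± 0.39 (adjusted p = 0.0516). Within set B, where LIF.NOG.4 is the only LIF.NOG array, that difference was -0.97, and the spread of LIF.NOG could not be measured. BMP4 and Neurosphere differed by 0.32 ± 0.28 (adjusted p = 0.382), and by -0.044 ± 0.17 without BMP4.3. The second Amigo2 probe showed the same high value on BMP4.3, 6.66 against 5.17 to 5.25 on the other BMP4 arrays, and passed in LIF.NOG against Neurosphere alone, at 0.83 ± 0.27 (adjusted p = 0.0330).

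Relatives and partners of Emp1, Amigo2, Cd109 and Aspg made a list of 12, with 10 tested. Of these 5 were higher and 1 lower in LIF.NOG than in Neurosphere, and 5 higher and 2 lower in BMP4 than in Neurosphere. Between the treatments, 2 were higher and 3 lower in BMP4 than in LIF.NOG. Their medians were 0.36, 0.18 and -0.25. Of all genes, 33.1%, 54.3% and 43.9% were called in these comparisons. Emp2, a relative of Emp1, rose by 1.70 ± 0.38 in LIF.NOG and by 3.80 ± 0.38 in BMP4 (limma adjusted p = 0.00408 and 1.44e-06), and was 2.10 ± 0.38 higher in BMP4 than in LIF.NOG (adjusted p = 0.000510), opposite in sign to Emp1. Emp3 rose by 2.34 ± 0.28 and 2.07 ± 0.28 in the treated groups (adjusted p = 4.88e-05 and 2.14e-05). A2m, the secreted relative of Cd109, was at least 10.3-fold higher in LIF.NOG and at least 5.98-fold higher in BMP4 than in Neurosphere (adjusted p = 2.67e-05 and 3.85e-05). A2m was detected on 1 Neurosphere array and so was kept through the treated groups, and these calls add no support. Tgfbr2, a TGF-beta receptor, was lower in BMP4 than in LIF.NOG at -1.64 ± 0.28 (adjusted p = 0.000323), the same direction as Cd109. Asrgl1, an asparaginase like Aspg, was 1.77 ± 0.21 higher in BMP4 than in Neurosphere and 1.65 ± 0.21 higher than in LIF.NOG (adjusted p = 5.71e-06 and 2.15e-05).

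**Figure D3:**
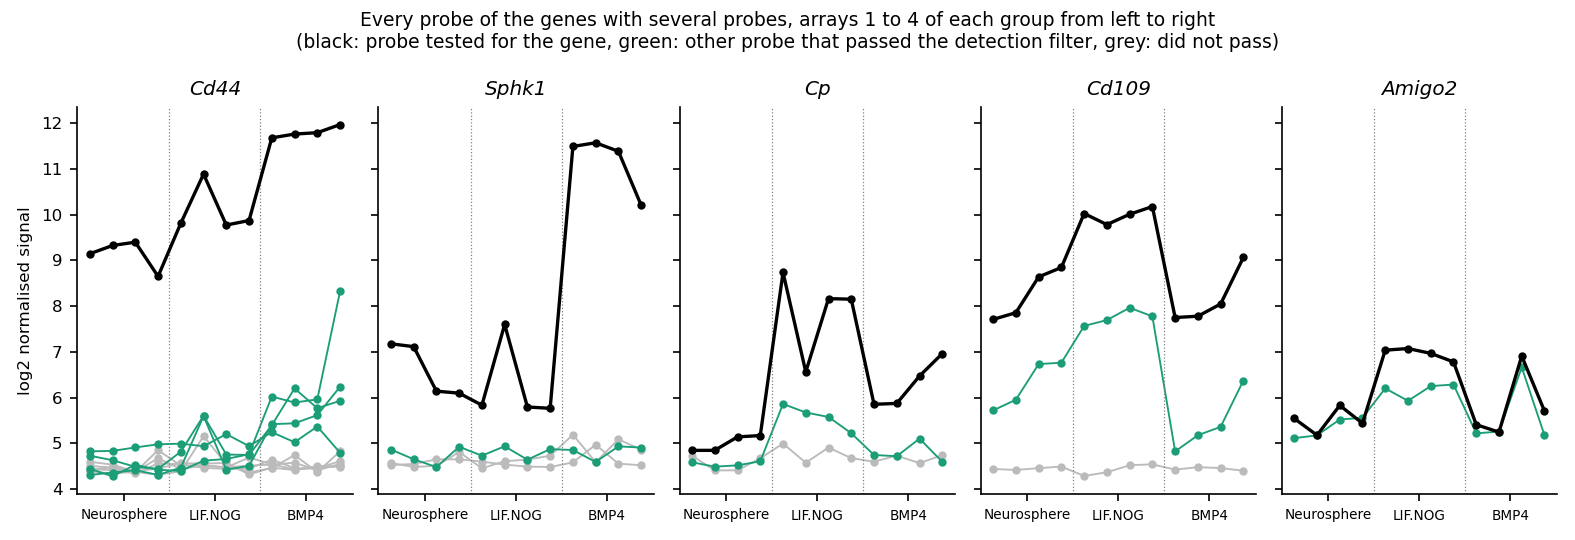
Log2 normalised signal of every probe of Cd44, Sphk1, Cp, Cd109 and Amigo2 on arrays 1 to 4 of each group, from left to right. Black lines are the probes tested for the gene, green lines other probes that passed the detection filter and grey lines probes that did not. Both kept Amigo2 probes peak on BMP4.3 among BMP4 arrays, and 1 Cd44 probe reaches 8.32 on BMP4.4.

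The remaining members are enzymes. Sphk1 encodes sphingosine kinase 1, which makes the signalling lipid sphingosine-1-phosphate. Its log2 signal was 7.18, 7.11, 6.14 and 6.09 on Neurosphere arrays, 5.83, 7.60, 5.79 and 5.76 on LIF.NOG arrays, and 11.50, 11.58, 11.39 and 10.21 on BMP4 arrays. All BMP4 arrays lay far above the rest, and the other groups overlapped through LIF.NOG.2. Sphk1 was 4.54 ± 0.43 higher in BMP4 than in Neurosphere, a 23.2-fold difference (limma adjusted p = 7.80e-07), and 4.92 ± 0.43 higher in BMP4 than in LIF.NOG (adjusted p = 8.03e-07). The latter was 5.69 ± 0.26 without LIF.NOG.2 and BMP4.4 (adjusted p = 6.56e-09). Between LIF.NOG and Neurosphere the difference was -0.38 ± 0.43 (adjusted p = 0.552), and Sphk1 was called lower in LIF.NOG without both arrays, at -0.83 ± 0.24 (adjusted p = 0.0140), and with array weights, at -0.89 ± 0.30 (adjusted p = 0.0248). With LIF.NOG.2 alone left out it was -0.83 ± 0.33 and did not pass (adjusted p = 0.0586).

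Of the 4 Sphk1 probes, the tested one carried this response. A second kept probe stayed between 4.48 and 4.93 on all 12 arrays, was detected on 5 of them and was called in no comparison (limma adjusted p = 0.775, 0.614 and 0.903). Another probe, annotated to the same transcript as the tested probe, was detected on 3 BMP4 arrays and on no other, at 5.18, 4.58, 5.08 and 4.86, and did not pass the filter. Averaging the kept probes gave 2.31 ± 0.24 for BMP4 against Neurosphere and 2.47 ± 0.24 against LIF.NOG (adjusted p = 2.00e-06 and 2.34e-06).

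Among 10 genes of sphingosine-1-phosphate metabolism and signalling, 7 were tested, with 4 higher and 1 lower in LIF.NOG than in Neurosphere, 4 higher and 0 lower in BMP4 than in Neurosphere, and 2 higher and 1 lower in BMP4 than in LIF.NOG. Medians were 0.54, 0.44 and 0.23, and 0.54, 0.44 and 0.11 with genes near the floor at their bounds. Of all genes, 33.1%, 54.3% and 43.9% were called in these comparisons. Sgpl1, the lyase that breaks sphingosine-1-phosphate down, rose by 1.04 ± 0.15 in LIF.NOG and by 1.32 ± 0.15 in BMP4 (limma adjusted p = 0.000200 and 4.51e-06). Plpp3, a lipid phosphatase of the cell surface, rose by 1.13 ± 0.20 and 0.86 ± 0.20 (adjusted p = 0.000743 and 0.00180). S1pr2, a receptor for the lipid, rose by 0.77 ± 0.17 in LIF.NOG (adjusted p = 0.00317) and was lower in BMP4 than in LIF.NOG at -0.56 ± 0.17 (adjusted p = 0.0137). Sgpp1, a phosphatase acting on the lipid, was 0.81 ± 0.12 higher in BMP4 than in LIF.NOG (adjusted p = 7.50e-05). Asah1, a ceramidase that yields sphingosine, rose by 0.66 ± 0.099 in BMP4 against Neurosphere and was 0.34 ± 0.099 above LIF.NOG (adjusted p = 6.33e-05 and 0.0117).

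Aspg encodes an asparaginase, an enzyme that splits asparagine. It was undetected on all Neurosphere arrays, at 4.57, 4.66, 4.54 and 4.54, and on all LIF.NOG arrays, at 4.53, 4.57, 4.60 and 4.55, and detected on all BMP4 arrays, at 6.10, 6.26, 6.16 and 7.01. The BMP4 arrays lay above every other array, with BMP4.4 highest. Aspg was at least 2.80-fold higher in BMP4 than in Neurosphere and at least 2.86-fold higher than in LIF.NOG (limma adjusted p = 7.34e-07 and 1.49e-06). It passed the filter through BMP4 arrays alone, so both calls follow from that and add no support. They held in all 25 alternatives, which share these detected and undetected arrays, so that adds none either. The size moved more: the fitted log2 difference was 1.80 against Neurosphere and 1.82 against LIF.NOG, fell to 0.77 and 0.78 with no background correction, and to 0.49 and 0.49 on the authors' processed values. Between LIF.NOG and Neurosphere no fold is given, since both were undetected.

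The members fall into patterns that can be set beside one another by the root mean square difference of their log2 values, centred on each gene's mean, over 12 arrays. This is a description over arrays that share groups. Aspg was detected on BMP4 arrays alone, and Lcn2 on 4 BMP4 arrays and 1 LIF.NOG array. Their distances thus include undetected values near the floor, which are no measure of a shared level there. Emp1 and Cd109 were the closest pair at 0.53, followed by Cd44 and Aspg at 0.56 and by Cd109 and Amigo2 at 0.61, and Timp1 and Sphk1 were the farthest apart at 3.28. Among all genes tested, Tgm2 at 0.32 and Phlda1 at 0.37 lay nearest to Cd109, Lonrf1 at 0.44 and Gap43 at 0.50 to Emp1, and Psmb8 at 0.32 and Lsp1 at 0.34 to Amigo2. Synpo at 0.59 and Klf4 at 0.62 lay nearest to Timp1, and Sned1 at 0.36 and Wdr92 at 0.40 to Cp. Limch1 at 0.20 and Bag3 at 0.21 lay nearest to Cd44, Ywhah at 0.12 and Zfp185 at 0.14 to Aspg, and Tmem100 at 0.55 and Gbx2 at 0.61 to Sphk1. Ptx3 at 0.65 and Ier3 at 0.68 lay nearest to Lcn2. The median over all genes ran from 0.83 for Amigo2 to 2.34 for Sphk1.

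Other reactive astrocyte genes, taken from the same published classes without the members, were counted in the same way. Of 6 pan-reactive genes tested of 8 listed, 5 were higher in LIF.NOG and 5 higher in BMP4 than in Neurosphere. Between the treatments, 2 were higher and 2 lower in BMP4 than in LIF.NOG. Medians were 3.23, 4.54 and 0.32, and 3.02, 4.33 and 0.36 with genes near the floor at their bounds. Of all genes, 33.1%, 54.3% and 43.9% were called in these comparisons. Serpina3n, a secreted protease inhibitor, was at least 78.5-fold higher in LIF.NOG and at least 136.2-fold higher in BMP4 than in Neurosphere (limma adjusted p = 9.95e-08 and 2.17e-09). Gfap, the gene of the promoter in the GFAP-GFP reporter, was at least 63.8-fold and at least 474.9-fold higher than in Neurosphere (adjusted p = 7.83e-06 and 2.61e-08), and 2.90 ± 0.59 higher in BMP4 than in LIF.NOG (adjusted p = 0.00120). Osmr, a receptor subunit for cytokines of the LIF family, was at least 9.13-fold higher in LIF.NOG and at least 3.75-fold higher in BMP4 than in Neurosphere (adjusted p = 1.80e-05 and 0.000124) and lower in BMP4 than in LIF.NOG at -1.28 ± 0.38 (adjusted p = 0.0134). Hspb1, a small heat shock protein, was 2.84 ± 0.32 higher in LIF.NOG and 6.75 ± 0.32 higher in BMP4 than in Neurosphere, and 3.91 ± 0.32 higher in BMP4 than in LIF.NOG (adjusted p = 3.35e-05, 1.59e-09 and 5.07e-07). Serpina3n and Osmr were undetected on all Neurosphere arrays, and Gfap was detected on 1. All were thus kept through the treated groups, and their calls against Neurosphere, counted above, add no support. The summed astrocyte markers, which include Gfap, were highest in BMP4 as well, and their part in these counts was not tested.

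Of 6 ischemia-type genes tested of 9 listed, 1 was higher and 1 lower in LIF.NOG than in Neurosphere, and 3 higher and 2 lower in BMP4 than in Neurosphere. Between the treatments, 2 were higher and 2 lower in BMP4 than in LIF.NOG. Medians were 0.07, 0.85 and 0.17, and -0.0038, 0.60 and 0.17 with genes near the floor at their bounds. Of all genes, 33.1%, 54.3% and 43.9% were called in these comparisons. Cd14, a co-receptor for bacterial lipopolysaccharide, was at least 5.44-fold higher in LIF.NOG and at least 6.98-fold higher in BMP4 than in Neurosphere (limma adjusted p = 5.68e-06 and 1.98e-07), and was the gene of the list called higher in LIF.NOG. Ptx3, a secreted pentraxin, was at least 2.34-fold higher in BMP4 than in Neurosphere and at least 1.85-fold higher than in LIF.NOG (limma adjusted p = 0.00218 and 0.0483), and S100a10, a calcium-binding protein family member, fell by 1.29 ± 0.34 in LIF.NOG and differed by -2.61 ± 0.34 in BMP4 against Neurosphere (adjusted p = 0.00958 and 1.55e-05). Tgm1, a transglutaminase, was at least 2.45-fold higher in BMP4 than in Neurosphere and at least 2.50-fold higher than in LIF.NOG (adjusted p = 1.14e-05 and 5.05e-05). Tgm1 was detected on BMP4 arrays alone, and Ptx3 on 4 BMP4 arrays and 1 LIF.NOG array. Both were thus kept through BMP4, and their calls as higher in BMP4 add no support. Cd14 was undetected on all Neurosphere arrays and so was kept through the treated groups, and its calls against Neurosphere add no support. Of 6 neuroinflammation-type genes tested of 10 listed, 2 were higher in LIF.NOG than in Neurosphere, and 3 higher and 1 lower in BMP4 than in Neurosphere. Between the treatments, 1 was higher and 3 lower in BMP4 than in LIF.NOG. Medians were 0.31, 0.66 and -0.48, and 0.20, 0.41 and -0.48 with genes near the floor at their bounds. Serping1, the complement C1 inhibitor, was at least 3.13-fold higher in LIF.NOG and at least 1.26-fold higher in BMP4 than in Neurosphere, and lower in BMP4 than in LIF.NOG at -1.32 ± 0.32 (adjusted p = 0.000171, 0.0228 and 0.00386), and Psmb8, an immunoproteasome subunit, was at least 2.87-fold higher in LIF.NOG and lower in BMP4 than in LIF.NOG at -1.35 ± 0.31 (adjusted p = 0.00144 and 0.00289). Fkbp5, a co-chaperone of the glucocorticoid receptor, fell by 2.00 ± 0.25 in BMP4 against Neurosphere and was lower than in LIF.NOG at -1.604 ± 0.25 (adjusted p = 1.03e-05 and 0.000135). H2-T23, a nonclassical class I histocompatibility gene, was at least 1.41-fold higher in BMP4 than in Neurosphere (adjusted p = 0.000102). Serping1 and H2-T23 were undetected on all Neurosphere arrays and so were kept through the treated groups. Their calls against Neurosphere add no support.

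**Figure D4:**
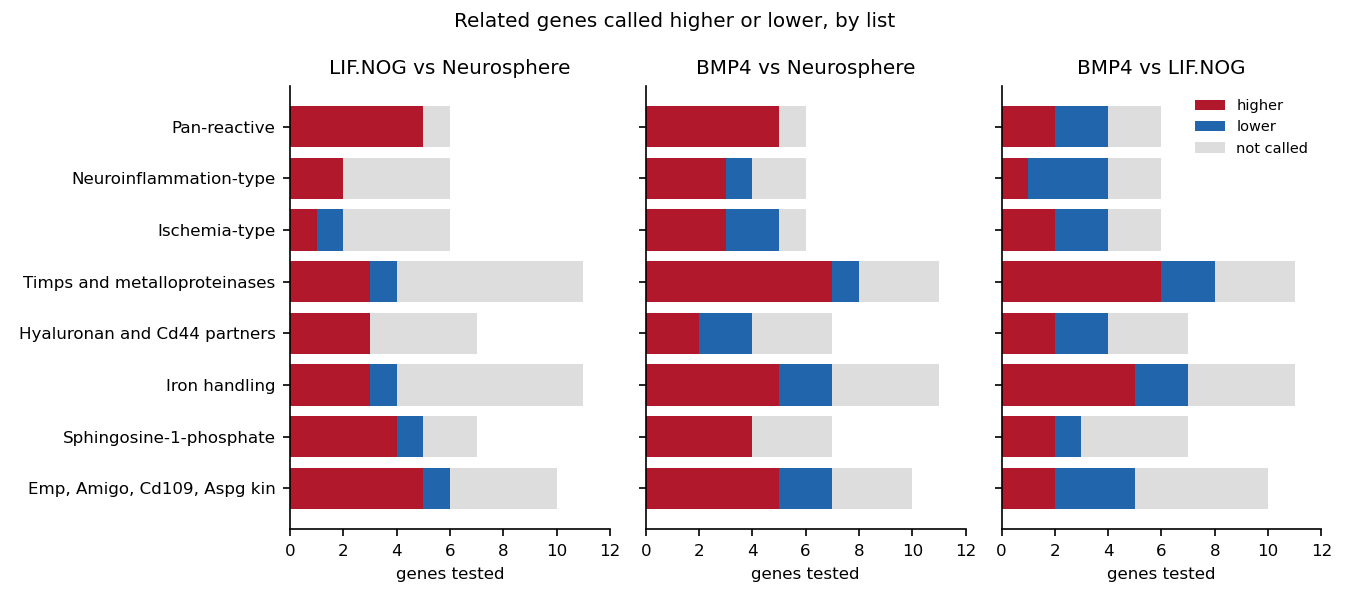
Number of related genes called higher (red), lower (blue) or not called (grey) in each comparison, at an adjusted p under 0.05, for 8 lists without the members. Bar length is the number of genes tested. Of 6 pan-reactive genes, 5 were higher in each treated group than in Neurosphere. Among these 5, Serpina3n, Gfap and Osmr were kept through the treated groups. Of all genes, 33.1%, 54.3% and 43.9% were called, in the order of the panels.

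Arrays LIF.NOG.2 and BMP4.4 had the lowest array weights of their groups, but not the widest departure for every gene. Amigo2 departed most on BMP4.3, at 6.91 against 5.24 to 5.70 on the other BMP4 arrays. Emp1 departed more on LIF.NOG.3, at 10.05 against 10.38 to 11.16 on the other LIF.NOG arrays, than on LIF.NOG.2. LIF.NOG.2 was the highest of its group for 6 of the 9 genes and the lowest for Cp and Cd109, while 33.0% of all genes were highest and 36.1% lowest on it. BMP4.4 was the highest of its group for 7 of the 9 and the lowest for Sphk1, while 31.1% of all genes were highest and 34.9% lowest on it. Lcn2 stood 3.85 above the mean of the other 3 arrays, which did not detect it, on LIF.NOG.2 and 2.146 above it on BMP4.4, and Timp1 stood 1.06 and 1.71 above. Emp1 and Cd109 stood 1.76 and 1.21 above on BMP4.4. Sphk1 and Cp were shifted in opposite ways, at 1.80 and -1.79 on LIF.NOG.2 and at -1.28 and 0.90 on BMP4.4.

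**Figure D5:**
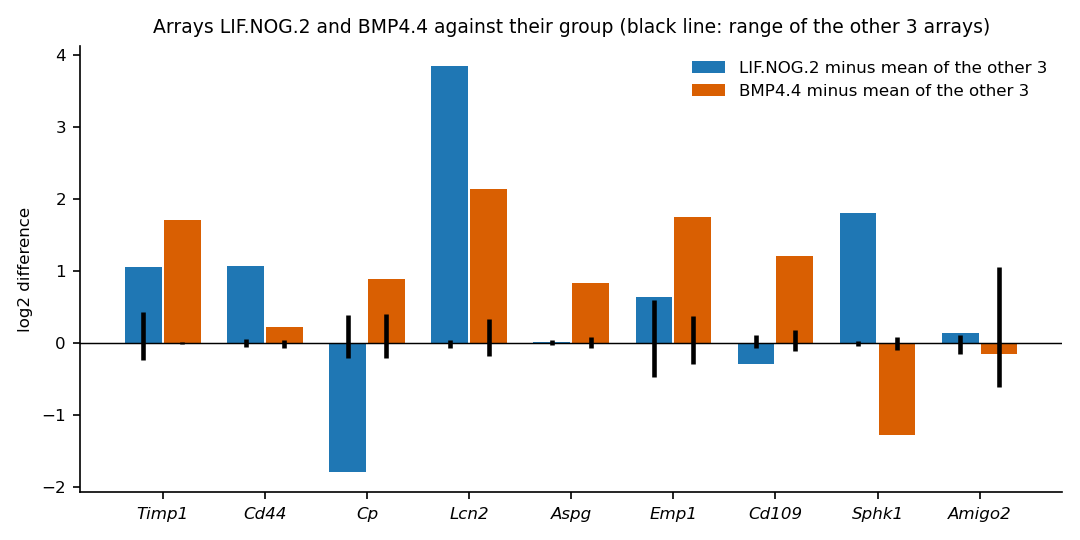
Log2 signal on array LIF.NOG.2 (blue) and array BMP4.4 (orange) minus the mean of the other 3 arrays of the group, for each of the 9 genes. Black lines span the other 3 arrays around their mean. Lcn2 departs most, at 3.85 and 2.146, and Sphk1 and Cp depart with opposite signs on these arrays.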

How the data were processed

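Illumina mouse bead arrays were used for 12 RNA samples, 4 per group, and titles gave group and replicate. Per the file headers, the deposited raw table gives signal intensity before normalization and a detection p-value for each probe and array. The authors' processed intensity values, deposited apart, served as an alternative, and their background step is not given in the sources used here. BeadStudio 3 and lumi 2.15.1 are named by the submitters' processing notes without a role. In the raw table the column of Neurosphere.1 stood in another row order, with a median rank correlation of 0.0104 with the others. The authors' table holds 6 arrays in that order, so 5 arrays present in both orders linked 46617 of 46643 raw rows to it by rank, and 13 authors' rows were left out. After the move Neurosphere.1 correlated with its group at 0.916 to 0.928, and all 26 probes of the 9 genes were matched. By row order the arrays fall into set A (Neurosphere.2 to 4 and LIF.NOG.1 to 3) and set B (the rest), which no label names as a batch.

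The neqc function (limma 3.58.1, R 4.3.3) applied normexp background correction with offset 16 and quantile normalization, and gave the log2 values computed here from the deposited intensity. Probes with 1 symbol and a detection p under 0.05 on at least 4 of 12 arrays were kept (15359 probes), and the probe with the highest mean stood for a gene with several. All 12 arrays entered 1 lmFit and eBayes fit of group means (residual degrees of freedom 9, prior 4.60), with two-sided p-values adjusted by the Benjamini-Hochberg method over 10786 genes. A gene undetected on at least 2 of 4 arrays of its dimmer group is given as a bound, with each array of that group at the higher of its own signal and its detection floor (log2 4.80 to 4.92 per array). On simulated data of the comparison of BMP4 with LIF.NOG over 10786 genes, the fit recovered 91% of differences of log2 size 1 and 99% of size 2. Same-numbered arrays deviated together with correlations of -0.05 to 0.26, not all over 0.1, so replicate numbers were not taken as pairs.

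The 9 genes and all lists were chosen with earlier results of these data known. Named beside them are up to 3 called genes of largest change per list and comparison, the 2 nearest genes of each member, and Gfap. Tables and figures used matplotlib 3.10.9, scipy 1.17.1, pandas 2.3.3 and numpy 2.4.6 in Python 3.11.15. Alternatives changed scaling, background correction, filter, probe choice, source table, array weights, blocks and the arrays used. The number of arrays limits the precision.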

Additional observations from a re-analysis of the deposited data

Results flagged for a closer look

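In 6 cases 1 array lay far from the other 3 of its group by Dixon's test at the 95% level. These were sought in 27 groups of 4 arrays, 3 of which were left out because the gene was undetected on all their arrays. Chance alone marks about 1 in 20 groups, or 5%. All 6 lie on LIF.NOG.2 or BMP4.4.

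On LIF.NOG.2, Lcn2 had a log2 signal of 8.32 against 4.41 to 4.51 on the other LIF.NOG arrays, Sphk1 one of 7.60 against 5.76 to 5.83, and Cd44 one of 10.89 against 9.78 to 9.88. On BMP4.4, Timp1 had 9.02 against 7.29 to 7.33 on the other BMP4 arrays, Aspg had 7.01 against 6.10 to 6.26, and Sphk1 had 10.21 against 11.39 to 11.58. Why these arrays differ was not tested.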

How the results depend on the processing

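The 27 log2 differences of the 9 genes were recomputed under 25 alternatives, which gave 675 values. Of these 647 kept direction and side of the threshold, 8 lost a call, 11 gained one and 9 changed sign, and 16 of the 27 differences were the same throughout. Each sign change was in a difference that had not been called. For Cd109 in BMP4 against Neurosphere, these were 0.085 with row-order set as block, 0.45 within 1 set, and 0.023 without Neurosphere.3, 0.092 without Neurosphere.4, 0.035 without BMP4.1 and 0.025 without BMP4.2, in a range of -0.40 to 0.092 over left-out arrays. The others were 0.0084 for Aspg in LIF.NOG against Neurosphere without Neurosphere.2 (range -0.032 to 0.0084), whose sign has no meaning because both groups were undetected, -0.044 for Amigo2 in BMP4 against Neurosphere without BMP4.3 (range -0.044 to 0.51), and -0.13 for Lcn2 in BMP4 against LIF.NOG without BMP4.4 (range -0.13 to 1.37), where 1 LIF.NOG array detected it.

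Within 1 row-order set, 1694 genes of all tested were called in LIF.NOG against Neurosphere in place of 3568, 3804 in BMP4 against Neurosphere in place of 5855, and 2316 in BMP4 against LIF.NOG in place of 4737. These fits use fewer arrays, and in set B the lone Neurosphere.1 and LIF.NOG.4 are assumed to vary like the other groups. With 1 array left out in turn, all-gene counts ranged from 2800 to 4349, 5412 to 6171 and 4216 to 5061 in that order, and counts among the 9 genes from 6 to 6, 4 to 5 and 8 to 9. Without Neurosphere.1, the realigned array, 6, 4 and 8 of the 9 were called, as with it. All-gene counts then fell to 2851, 5412 and 4581 from 3568, 5855 and 4737. With the replicate block the counts were 6, 4 and 8 of the 9 genes and 3596, 5918 and 4828 of all genes. Weighting arrays called 7, 6 and 8 of the 9, beside 4910, 6671 and 5290 of all genes. The cause of the lost and gained calls was not tested. For Aspg, Lcn2 and Cp, undetected on some or all arrays of a group, the values compared across alternatives are fitted differences and the fold changes are bounds.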
